A study of Mus musculus with 20 samples.

Results

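Immediate-early genes are the genes that neurons transcribe within minutes of synaptic activity, and 37 of them, chosen by gene symbol, were followed here through bulk RNA-seq of cortex from 5xFAD mice. All 37 symbols were found among the 43346 genes of the count table, and all 37 passed the filter on low counts. Calcium entry through synaptic receptors and channels activates CREB, SRF and MEF2, which are already bound to these genes, so that their RNA appears without new protein synthesis. The products include transcription factors, phosphatases and kinases that end the signal, and effectors that act at the synapse. Arousal, handling and seizures shortly before death are known to change their level in cortex.

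The study asked how a knocked-in substitution in Abca7, which encodes a lipid transporter and is an Alzheimer's disease risk gene in humans, bears on amyloid pathology and brain immunity. There were 4 groups of 5 libraries: KI (knockin) and control (Abca7 wild type) at 3 months, and KI and control at 10 months. Animals of all 4 groups were 5xFAD+/-, an amyloid model whose transgenes are driven by a Thy1 promoter in neurons, and no group without amyloid was analysed here. Controls were Abca7WT/WT. The knocked-in allele replaces an alanine codon by a serine codon, and the KI label does not say whether an animal was Abca7WT/KI or Abca7KI/KI, both of which the protocol mentions. Nothing in the labels says outright that the 5 libraries of a group came from 5 animals. The p-values therefore describe library-to-library spread, part of which may be technical.

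Library totals ran between 42896149 and 57447015 counts, which left between 10 and 15208 counts per library for members named in detail, and levels are given as CPM after scaling of the library totals. Markers of cortical excitatory neurons summed to between 4064 and 5759 CPM over all 20 libraries, with none of 10 at 0 in every library. Abca7 itself averaged 25.4 ± 4.88 CPM in KI and 28.2 ± 1.38 CPM in control at 3 months (SD, n = 5 each, exact permutation p = 0.27). The 10-month averages were 24.1 ± 4.08 CPM in KI and 27.04 ± 4.33 CPM in control, with an exact permutation p of 0.286 (SD, 5 libraries each). The protocol speaks of male littermates, but at 10 months Xist had 54206 counts in KI replicate 5, where the Y-linked Ddx3y had 1. KI replicate 3 at 3 months stood highest on the second principal component. Shox2, a transcription factor gene of thalamus, had 84 to 387 counts in the KI libraries at 3 months, 188 and 203 in control replicates 8 and 10 at 3 months, and at most 7 in the other 13 libraries. Values without these libraries stand beside the medians and calls that they move.

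The DNA before the start site holds the letters through which activity is known to reach these genes: the cyclic AMP response element (CRE, TGACGTCA) and its 5-base core TGACG bind CREB, and the CArG box of the serum response element binds SRF. Windows of 300 bases, 250 before to 50 after a RefSeq transcript start in build GRCm38.p6, were found for 27 of the 37 members. TGACG stood on either strand in at least 1 window of 19 of the 27 members (70.4%), against 23.05% of all genes in the RefSeq table and 32.4% of the genes tested here. The complete CRE, which contains the core on both strands, was present at Btg2, Dusp1 and Plk2. These 3 members are 11.1%, against 2.03% of all genes and 3.26% of the genes tested. The EGR motif GCGGGGGCG was present at Fosb, Fosl2, Klf4 and Nr4a1 (14.8%, against 3.31% of all genes and 5.91% of those tested). A CArG box was present at Egr2 and Dusp5 (7.41%, against 1.81% of all genes and 1.67% of those tested). TATAAA was present at 4 members (14.8%, against 15.7% of all genes and 9.55% of those tested). The AP-1 motif TGAGTCA was found at 0 members, against 5.95% of all genes and 4.66% of those tested. These matches describe letters and not sites in use. Motifs more than 250 bases before a start site, at Fos or any other member, lie outside the windows and were not looked for.

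The windows of 5 members, picked by their expression, are shown, and no motif was related to a change in expression. Fos, Egr2 and Nr4a3 did not overlap between genotypes at 3 months, and Homer1 and Atf3 changed with age. Egr1 and Sik1 also did not overlap at 3 months, but no window was found for them. The 5 members shown lie at the places that follow. The windows are chr12:85473640-85473939 (Fos, + strand), chr10:67537619-67537918 (Egr2, + strand), chr4:48045055-48045354 (Nr4a3, + strand), chr13:93303507-93303806 (Homer1, + strand) and chr1:191183284-191183583 (Atf3, - strand), and are written 5′ to 3′ on the gene's strand. Capitals mark TGACG or its reverse complement CGTCA in all 5, the CArG box CCATATATGG in Egr2 and TATAAA in Fos.
Fos: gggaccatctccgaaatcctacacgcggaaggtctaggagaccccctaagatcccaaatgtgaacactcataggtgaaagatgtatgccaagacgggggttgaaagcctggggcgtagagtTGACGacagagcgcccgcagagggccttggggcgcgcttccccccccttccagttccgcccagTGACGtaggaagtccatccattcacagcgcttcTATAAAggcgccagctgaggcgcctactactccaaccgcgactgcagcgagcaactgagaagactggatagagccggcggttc
Egr2: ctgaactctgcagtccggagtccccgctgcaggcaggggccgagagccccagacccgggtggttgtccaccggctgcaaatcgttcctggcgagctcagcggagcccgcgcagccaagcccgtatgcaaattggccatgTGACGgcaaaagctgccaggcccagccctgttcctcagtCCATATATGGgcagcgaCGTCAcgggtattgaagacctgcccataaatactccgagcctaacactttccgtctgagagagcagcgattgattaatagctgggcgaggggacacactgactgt
Nr4a3: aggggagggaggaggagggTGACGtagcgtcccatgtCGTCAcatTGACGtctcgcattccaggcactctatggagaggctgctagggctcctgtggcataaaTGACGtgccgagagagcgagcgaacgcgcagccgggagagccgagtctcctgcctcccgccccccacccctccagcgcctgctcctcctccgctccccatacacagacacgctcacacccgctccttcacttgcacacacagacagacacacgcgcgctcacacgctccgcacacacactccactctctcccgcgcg
Homer1: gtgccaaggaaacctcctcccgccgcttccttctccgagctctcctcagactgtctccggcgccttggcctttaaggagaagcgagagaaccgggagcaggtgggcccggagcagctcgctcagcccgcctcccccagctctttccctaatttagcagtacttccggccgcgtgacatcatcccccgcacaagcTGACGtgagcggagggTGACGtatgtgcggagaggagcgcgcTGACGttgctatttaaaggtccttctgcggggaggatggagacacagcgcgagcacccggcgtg
Atf3: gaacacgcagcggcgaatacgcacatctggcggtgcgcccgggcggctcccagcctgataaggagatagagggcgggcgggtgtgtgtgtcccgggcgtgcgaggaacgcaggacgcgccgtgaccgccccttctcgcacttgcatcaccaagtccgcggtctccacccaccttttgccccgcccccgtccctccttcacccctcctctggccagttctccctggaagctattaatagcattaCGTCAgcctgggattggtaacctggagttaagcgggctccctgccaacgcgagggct
In the windows shown, Nr4a3 held 4 copies of the core, Homer1 held 3, Fos and Egr2 held 2 each, and Atf3 held 1. Egr2 and Homer1 also have windows at other transcript starts. Of these, the Egr2 windows beginning at 67535249 and 67537316 and the Homer1 window beginning at 93307784 held 0 copies. The Egr2 window at 67537316 held the CArG box CCTTTTTTGG. In Fos the copies began 129 and 66 bases before the start site and TATAAA 33 bases before it. The counts are per gene, so the short activity-induced Homer1a transcript could not be told from the long Homer1 forms.

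Per kilobase of gene length, the highest level over the 20 libraries belonged to Plk2, a polo-like kinase that scales synapses down, at 85.9 CPM per kb. Egr1, a zinc finger factor of memory, followed at 43.4 CPM per kb, then Arc, which drives endocytosis of AMPA receptors, and Vgf, a secreted neuropeptide precursor, both at 24.4 CPM per kb. The orphan nuclear receptor gene Nr4a1 stood at 23.6, Homer1 at 15.8 and Fos at 7.72 CPM per kb. Averaged over both ages, the lowest levels belonged to the kinase gene Pim1 at 1.07 and to Atf3, a stress-induced bZIP factor whose level differed several-fold between the ages, at 0.72 CPM per kb. Arc, Vgf and Nr4a1 are neighbours in this order that lay well within the spread of Arc, which ranged 8.2-fold between the lowest and the highest library. Atf3 overlaps the gene Gm24748, Jun overlaps Junos, Jund overlaps Gm11175, Pim1 overlaps Gm26885 and Tiparp overlaps 4931440P22Rik, each on the opposite strand. The strand setting of the counting is not known, so counts of these 5 members are uncertain.

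**Figure D1:**
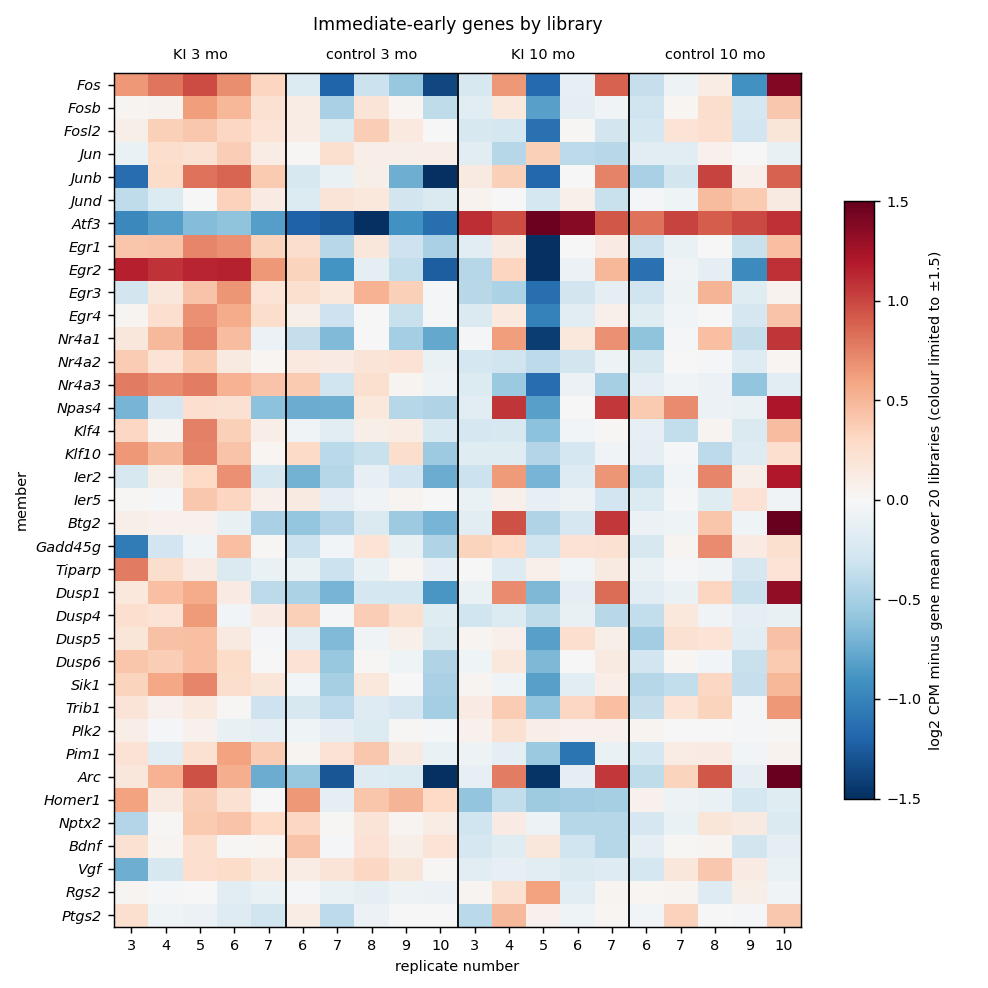
Each row is a member and each column a library, grouped as KI and control at 3 months, then KI and control at 10 months. Colour gives log2 CPM minus the gene's mean over 20 libraries, limited to 1.5 in either direction. KI replicate 5 at 10 months is blue for Egr1, Egr2, Arc and Nr4a1, and control replicate 10 at 10 months is red for Fos, Arc and Btg2.

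The members varied more between libraries of the same group than most genes did. Their median residual SD was 0.29 on the log2 CPM scale, against 0.20 for all genes tested, and 31 of 37 lay above that median. Arc had the largest residual SD, 0.77, followed by Egr2 at 0.75, Junb at 0.72 and Fos at 0.65, whereas Plk2 had the smallest, 0.08. A KI and a control library at 10 months stood at the ends of the range. KI replicate 5, the library with high Xist, was lowest of all 20 libraries for 15 members and lowest in its group for 23. Control replicate 10 was highest in its group for 21 members, with Fos at 41.6 CPM and Arc at 179 CPM.

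Many members moved together within groups. After the group means were removed, log2 CPM of Egr2 correlated with that of Fos at r = 0.94 over the 20 libraries. The same value was 0.94 for Dusp1, a phosphatase that switches off MAP kinases, 0.91 for Dusp6, 0.91 for Nr4a1 and 0.90 for Arc. In all, 10 members had r above 0.8 with Fos, 21 had r above 0.5 and 7 lay below 0. Without control replicate 10 and KI replicate 5 at 10 months, the libraries farthest from the median of Fos, 6 members kept an r above 0.8 and 18 an r above 0.5. Correlations with Fos nearer 0 were found for Plk2 (0.18), Vgf (0.00) and Bdnf (-0.11, and 0.28 without those 2 libraries). Jun, the partner of Fos in AP-1, had r = -0.52, which became -0.37 without them. Rgs2, an inhibitor of G protein signalling, had -0.38, which became -0.09, and Atf3 had -0.26, which became -0.31. Gadd45g, a stress sensor that takes part in DNA demethylation and was picked out after its values were seen, had r = 0.30 with Fos but correlated with Egr3 at 0.88, with Junb at 0.86, with Vgf at 0.85 and with Jund at 0.80, and Vgf with Nptx2 at 0.82. Tiparp, an ADP-ribosyltransferase, was opposed to Nptx2 at -0.73, and Rgs2 to Fosl2 at -0.79 and to Egr3 at -0.77. All these pairs without Fos were picked out after their values were seen, and were not recomputed without the 2 libraries. These correlations are descriptions, since libraries share scaling, dissection and RNA quality.

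**Figure D2:**
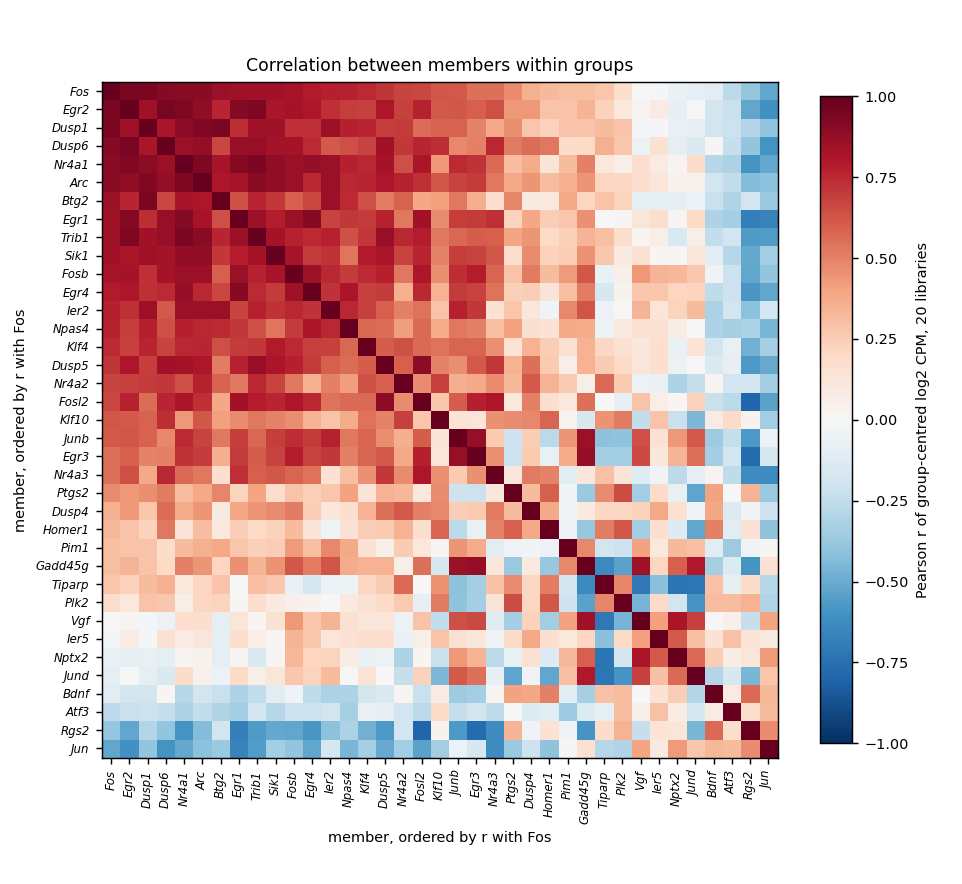
Pearson r between members over 20 libraries, after the mean of each group was subtracted from log2 CPM, with members ordered by their r with Fos. A red block runs from Fos to Nr4a3 (r with Fos between 0.94 and 0.55), and Jun, Rgs2 and Atf3 at the far end are negative with Fos.

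Outside the 37 members, the genes whose group-centred level was most like the members' mean were Arl4d (r = 0.88), Csrnp1 (0.86), Gpr3 (0.85), Midn (0.80) and Sox8 (0.80) over 20 libraries, of 13832 candidates. Cyr61 (0.78), Dnajb5 (0.78), Gmeb2 (0.75), Spry2 (0.75) and Bhlhe40 (0.74) completed the 10 most alike. Of these 10, Arl4d, Csrnp1, Gpr3, Midn, Cyr61 and Spry2 were on a list of other rapidly induced genes. That list was chosen with earlier results of these data known, so the match is no independent support.

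At 3 months most immediate-early genes stood higher in KI than in control cortex, but none passed the test. The log2 fold change was above 0 for 33 of 37 members, against 52.4% of all genes, with a median of 0.35 for the members and 0.01 for all genes. The edgeR test called 0 of the 37, against 0.0255% of all genes (0.0102% higher and 0.0153% lower), and the smallest adjusted p was 0.874. At an unadjusted p under 0.05 there were 16 members higher in KI, where 2.47% of all genes were higher, and 0 lower, where 1.32% were lower. DESeq2 and limma-voom also called 0. The genotypes did not overlap for 5 members, Fos, Egr1, Egr2, Nr4a3 and Sik1, all higher in KI, as were 0.306% of genes, and 0 members were separated downward, as were 0.352% of genes.

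Among the AP-1 factors, 7 of 7 lay above 0. Fos, which pairs with Jun proteins on DNA, had 24.9, 27.5, 31.2, 25.6 and 19.9 CPM in the KI libraries, against 13.8, 6.88, 12.7, 10.7 and 6.11 CPM in the control libraries. Every KI library lay above every control library. Control replicates 8 and 10, which had high Shox2 counts, had 12.7 and 6.11 CPM, and the part of thalamus tissue in Fos was not tested by itself. The log2 fold change of Fos was 1.36 ± 0.39 (SE), a ratio of 2.57, with an adjusted p of 0.874 in edgeR. Atf3 had 0.591, 0.657, 0.746, 0.773 and 0.661 CPM in KI libraries, against 0.503, 0.483, 0.225, 0.623 and 0.526 CPM in control libraries, or 25 to 38 against 10 to 31 counts. The lowest KI library overlapped the highest control library, and the log2 fold change was 0.53 ± 0.19 (adjusted p = 1). Junb had 0.80 ± 0.38, Fosb 0.39 ± 0.18, Fosl2 0.18 ± 0.16, Jun 0.07 ± 0.12 and Jund 0.05 ± 0.14 on the log2 scale.

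The EGR factors, zinc finger proteins that act downstream of MAP kinase signalling, lay above 0 at 4 of 4 members. Egr2 had 14.4, 13.6, 14.1, 14.2 and 10.1 CPM in KI libraries, against 8.09, 3.42, 5.82, 4.94 and 2.70 CPM in control libraries. Its 4 highest KI libraries lay within 1 CPM of each other, and the groups did not overlap. Egr2 had a log2 fold change of 1.41 ± 0.41, a ratio of 2.65, with an adjusted p of 0.874 in edgeR. Egr2 and Dusp6 lie on chromosome 10, as does Abca7, so that sequence inherited with the knocked-in allele and the allele itself cannot be told apart there. Egr1 ran between 233 and 306.5 CPM in KI and between 132 and 222 CPM in control libraries, with a log2 fold change of 0.65 ± 0.24. Egr4 had 0.48 ± 0.18 and Egr3 0.01 ± 0.18 on the log2 scale.

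The NR4A orphan nuclear receptors lay above 0 at 3 of 3 members. Nr4a3 had 54.8, 52.4, 54.5, 46.05 and 43.1 CPM in KI libraries, against 42.1, 26.05, 37.9, 33.0 and 30.4 CPM in control libraries. The groups were separated by about 1 CPM at their nearest libraries. Nr4a3 had a log2 fold change of 0.57 ± 0.16, with an adjusted p of 0.874 in edgeR. Nr4a1 had 0.81 ± 0.33 and Nr4a2, which is also a marker of deep-layer and claustral neurons, 0.12 ± 0.08 on the log2 scale.

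The remaining nuclear regulators lay above 0 at 8 of 8 members. Klf10, a TGF-beta inducible repressor, had 42.2, 37.6, 45.3, 36.3 and 27.4 CPM in KI libraries, against 33.0, 20.4, 21.4, 32.3 and 18.5 CPM in control libraries. KI replicate 7 fell inside the control range, and the other KI libraries lay above it, with a log2 fold change of 0.59 ± 0.16 (adjusted p = 0.874 in edgeR). Ier2 had 0.60 ± 0.30, Btg2 0.43 ± 0.32, Klf4 0.38 ± 0.16 and Tiparp 0.33 ± 0.14 on the log2 scale. Npas4, a neuron-specific factor that responds to depolarisation alone, had 0.24 ± 0.34, Ier5 0.17 ± 0.09 and Gadd45g 0.02 ± 0.22.

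The MAP kinase phosphatases lay above 0 at 4 of 4 members, and so did the kinases and pseudokinases at 4 of 4. Dusp1 had 0.71 ± 0.31, Dusp6 0.45 ± 0.17, Dusp5 0.43 ± 0.19 and Dusp4 0.08 ± 0.13 on the log2 scale. Sik1, a kinase that feeds back on CREB coactivators, had 11.3, 13.4, 15.0, 10.8 and 10.2 CPM in KI libraries, against 8.76, 6.38, 10.02, 8.94 and 6.43 CPM in control libraries. The genotypes did not overlap, by a margin of 10.2 against 10.02 CPM, with a log2 fold change of 0.58 ± 0.20 (adjusted p = 1 in edgeR). Trib1 had 0.35 ± 0.17, Pim1 0.13 ± 0.17 and Plk2 0.06 ± 0.06.

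The effectors differed from the regulators in that 3 of 7 lay above 0, with a median of -0.01. Arc had 72.1, 91.7, 124, 93.3 and 38.2 CPM in KI libraries, against 43.1, 26.3, 56.2, 55.6 and 21.8 CPM in control libraries. KI replicate 7 fell among the controls, and the log2 fold change was 1.05 ± 0.45 with an adjusted p of 1 in edgeR. The others lay near 0: Rgs2 at 0.04 ± 0.10, Nptx2, which clusters AMPA receptors, at 0.04 ± 0.14, the cyclooxygenase gene Ptgs2 at -0.01 ± 0.14, the neurotrophin gene Bdnf at -0.07 ± 0.10, Homer1 at -0.09 ± 0.12 and Vgf at -0.18 ± 0.14. Whether the effectors differ from the regulators was not tested.

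**Figure D3:**
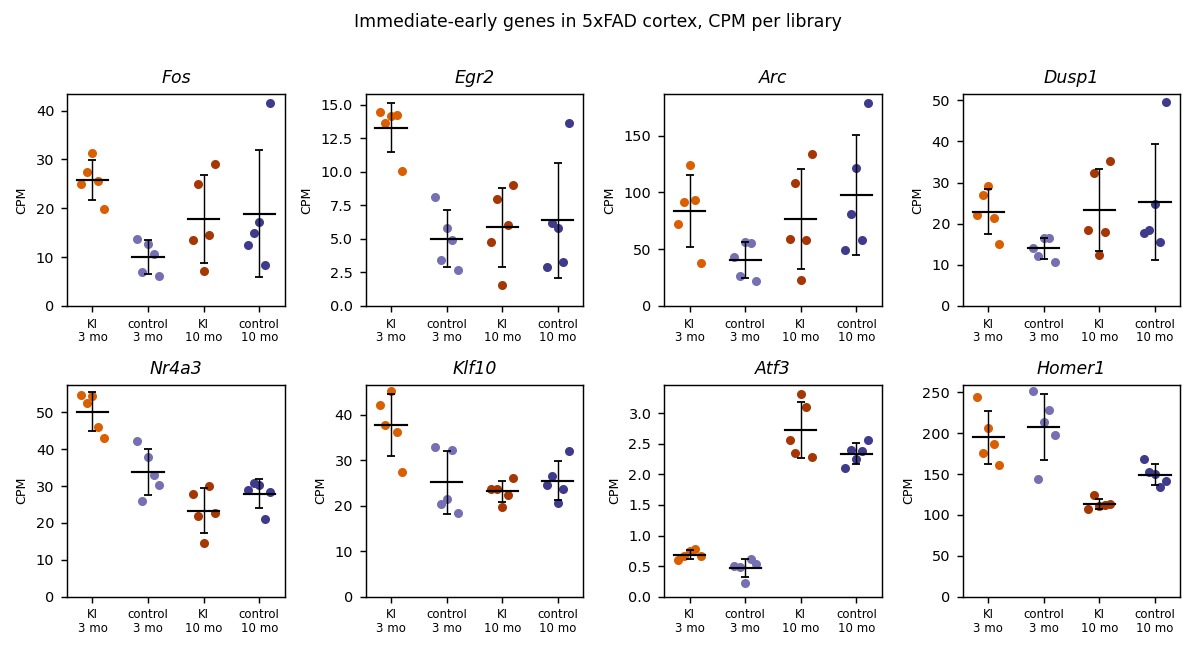
CPM of 8 members in each library (points), with the group mean (bar) and SD (whisker, n = 5), each panel in the order KI then control at 3 months, KI then control at 10 months. Fos, Egr2 and Nr4a3 show no overlap between genotypes at 3 months, Atf3 is above 2 CPM in every library at 10 months and below 1 CPM in every library at 3 months, and Homer1 is lowest in KI at 10 months.

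Some marker lists of tissue next to cortex also stood higher in KI at 3 months, and others lower, with 0 members called in any of them. Thalamus markers lay above 0 at 10 of 10 members (median 0.46), with summed levels of 147 to 292 CPM in KI and 106 to 218 CPM in control libraries. Choroid plexus markers lay above 0 at 11 of 11 (median 0.85), summing to 356 to 3398 CPM in KI and 379 to 2095 CPM in control, and meningeal fibroblast markers at 9 of 9 (median 0.41). Striatum markers lay above 0 at 2 of 10 (median -0.10), hippocampus markers at 3 of 10 (median -0.16) and erythrocyte markers at 0 of 5 (median -0.81). With the thalamus score as a covariate the median of the immediate-early genes was 0.36 with 33 above 0, and with the choroid plexus score it was 0.34 with 34 above 0. Within groups the members' mean score correlated at r = 0.56 with that of glucocorticoid response genes, at 0.48 with endothelium, at -0.48 with hippocampus, at -0.12 with thalamus and at 0.07 with choroid plexus, over 20 libraries. It correlated at 0.93 with other rapidly induced genes, at 0.59 with upstream signalling genes and at 0.54 with genes induced later. The value was 0.48 for cortical layer markers and 0.43 for excitatory neuron markers. Without control replicate 8 or 10, the control libraries with Shox2 counts, the members' median was 0.38 and 0.33. In bulk tissue, fewer cells of a type and less RNA per cell cannot be told apart. Genes induced by glucocorticoid hormone, which rise under handling and stress, pointed the other way at 3 months: 10 of 13 lay below 0, with a median of -0.20 and 0 called. Of these, Hif3a had -0.86 ± 0.27 and Fkbp5 -0.36 ± 0.13. The part of these markers in the genotype difference was not tested beyond the covariate fits.

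At 10 months most members stood slightly lower in KI than in control cortex, and again none passed the test. Only 4 of 37 had a log2 fold change above 0, against 50% of all genes, and the median was -0.14, against 0.00 for all genes. The edgeR test called 0 members, against 0.0612% of all genes (0.0357% higher and 0.0255% lower), as did DESeq2 and limma-voom. At an unadjusted p under 0.05 there were 4 members lower in KI, where 3.33% of all genes were lower, and 0 higher, where 4.53% were higher. The direction leaned on a library of each genotype: without KI replicate 5 the median was -0.05 with 15 members above 0, and without control replicate 10 it was -0.05 with 13 above 0. Choroid plexus markers were lower in KI at this age (0 of 11 above 0, median -0.88) and glucocorticoid response genes were mostly above 0 (11 of 13, median 0.18), with 0 called in either list. With the choroid plexus score as a covariate the members' median was -0.14 with 4 above 0, and the part of the glucocorticoid response was not tested.

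Homer1 was the member of smallest p at 10 months. It had 107, 124, 111, 112 and 114 CPM in KI libraries, against 168, 152, 149.7, 134 and 142 CPM in control libraries. All KI libraries, the high-Xist library included, lay below all control libraries, a separation downward that 0.586% of genes shared. Homer1 differed by -0.39 ± 0.12 on the log2 scale (adjusted p = 0.382 in edgeR). Plk2 was separated upward, as were 0.907% of genes, at 250.6, 282, 257, 251.5 and 252.2 CPM in KI libraries, against 247, 239.96, 238, 235 and 242 CPM in control libraries. Its log2 fold change was 0.11 ± 0.06, so the gap was small beside the level.

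Egr3, a zinc finger factor, had 13.5, 12.9, 8.27, 14.9 and 16.4 CPM in KI libraries at 10 months, against 14.7, 17.2, 25.7, 16.0 and 18.7 CPM in control libraries. The groups overlapped at KI replicates 6 and 7, and the log2 fold change was -0.48 ± 0.18 (adjusted p = 0.494 in edgeR). Fosl2 had -0.37 ± 0.16 (-0.23 without KI replicate 5), Pim1 -0.35 ± 0.17 (-0.21 without KI replicate 6), Jund -0.28 ± 0.14 and Nr4a2 -0.17 ± 0.08 on the log2 scale. Of the 5 members without overlap at 3 months, Fos had -0.09 ± 0.38, Egr2 -0.12 ± 0.41, Egr1 -0.15 ± 0.24, Sik1 -0.14 ± 0.20 and Nr4a3 -0.26 ± 0.16 on the log2 scale at 10 months, with overlap in all 5. Fos ran between 7.07 and 29.2 CPM in KI and between 8.45 and 41.6 CPM in control libraries at this age, a wide overlap. In KI replicate 5 Egr1 stood at 60.3 CPM, where the other KI libraries had 165 to 203 CPM, while Jun at 30.9 CPM and Rgs2 at 101 CPM were the highest of that group.

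**Figure D4:**
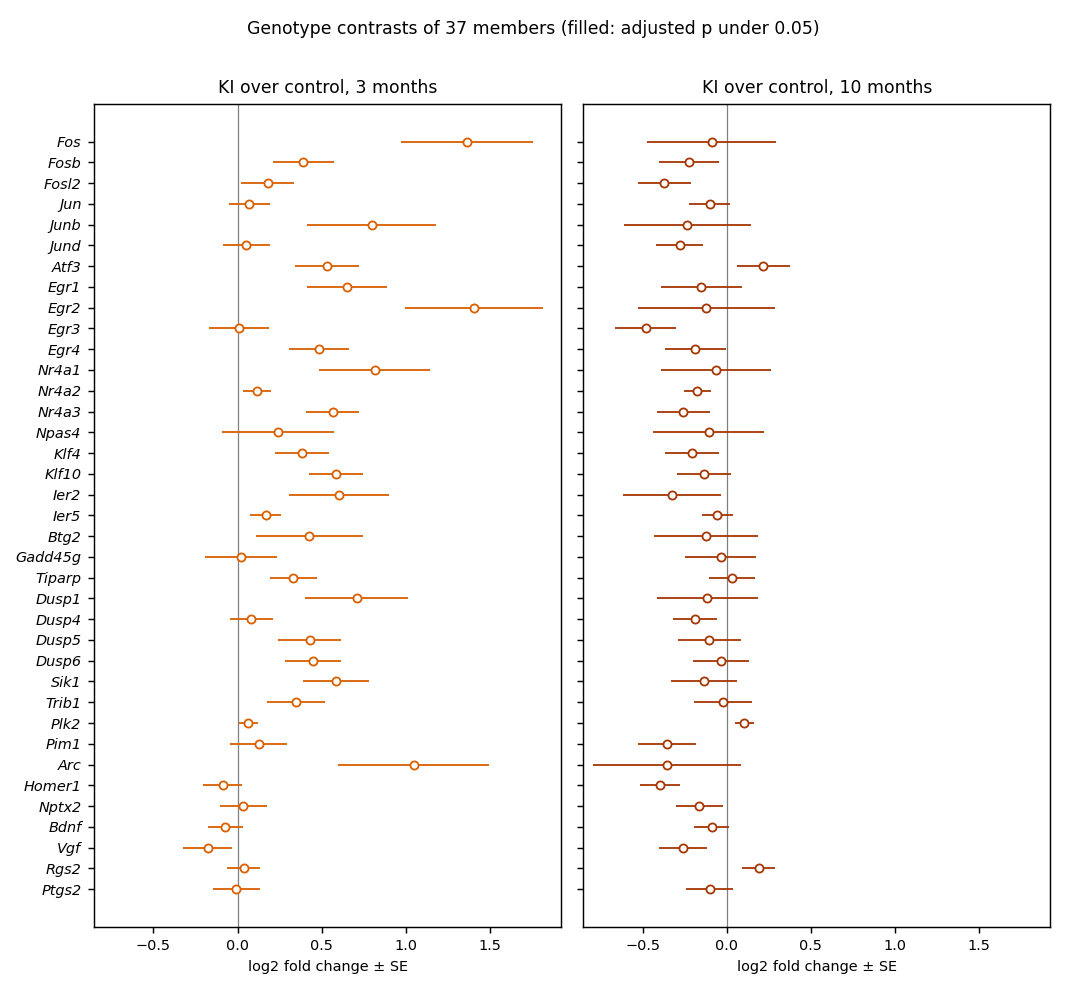
Log2 fold change of KI over control with its SE for each of the 37 members at 3 months (left) and 10 months (right), where a filled point would mark an adjusted p under 0.05. At 3 months 33 points lie above 0 and at 10 months 4 do, and no point is filled.

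Averaged over both ages, 0 of 37 members were called, against 0.0764% of all genes (0.0459% higher and 0.0306% lower), and DESeq2 and limma-voom called 0. At an unadjusted p under 0.05 there were 4 members higher (3.94% of all genes) and 2 lower (2.58%). Of the 37, 24 lay above 0, against 51.4% of all genes, with a median of 0.11. The median was 0.065 without KI replicate 4 at 10 months. It was 0.24 with a replicate block, which compares genotypes only through replicate numbers 6 and 7. Fos had 0.64 ± 0.27, Egr2 0.64 ± 0.29, Atf3 0.37 ± 0.12, Plk2 0.08 ± 0.04, Vgf -0.22 ± 0.10 and Homer1 -0.24 ± 0.08, with adjusted p between 0.56 and 0.753 in edgeR.

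More members passed the test with age than with genotype. In KI cortex 10 of 37 members (27.03%) differed between 10 and 3 months, against 8.06% of all genes. Atf3 rose, as did 5.66% of all genes, and 9 members fell (24.3%), where 2.41% of all genes fell: Fosl2, Egr3, Nr4a2, Nr4a3, Klf4, Klf10, Dusp4, Pim1 and Homer1. The median over the members was -0.30, against 0.00 for all genes. At an unadjusted p under 0.05 there were 3 members higher (12.3% of all genes) and 19 lower (8.97%), and 9 of 37 lay above 0, against 49.3%. The 10-month and 3-month KI libraries did not overlap for 10 members that were lower (1.83% of genes) and for Atf3, which was higher (5.34% of genes). The comparison shares the 5 KI libraries at 3 months with the genotype comparison at that age, so a high level there enters both.

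Atf3, induced by stress and injury in neurons and in myeloid cells, had 2.57, 2.36, 3.32, 3.10 and 2.29 CPM in KI libraries at 10 months, against 0.591, 0.657, 0.746, 0.773 and 0.661 CPM at 3 months. The lowest library at 10 months was about 3 times the highest at 3 months. Atf3 rose by 1.99 ± 0.17 on the log2 scale, 3.96-fold (adjusted p = 7.2e-08 in edgeR). Microglia markers moved with it, with 9 of 9 above 0 in either genotype and a median log2 fold change of 0.95 in KI and 0.86 in control. In either genotype 7 were called higher, where 5.66% of all genes rose in KI and 3.72% in control. Trem2, which rose 6.4-fold in KI, lay above that median. The part of cell composition in the rise of Atf3 was not tested.

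Homer1, the scaffold that links metabotropic glutamate receptors to their signalling partners, had 107, 124, 111, 112 and 114 CPM in KI libraries at 10 months, against 245, 176, 206, 187 and 161 CPM at 3 months. The 10-month libraries lay within a narrow band below all the 3-month libraries. Homer1 fell by 0.78 ± 0.12 on the log2 scale (adjusted p = 0.00014 in edgeR), a ratio of 0.58. Nr4a3 had 27.7, 21.8, 14.4, 30.0 and 22.7 CPM at 10 months, against 54.8, 52.4, 54.5, 46.05 and 43.1 CPM at 3 months. It fell by 1.11 ± 0.16 (adjusted p = 6.6e-05 in edgeR) with no overlap between ages, and Nr4a2 fell by 0.49 ± 0.08 (adjusted p = 0.00036).

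Klf10 had 23.7, 23.7, 19.8, 22.4 and 26.1 CPM at 10 months, against 42.2, 37.6, 45.3, 36.3 and 27.4 CPM at 3 months. The nearest pair of libraries was 26.1 and 27.4 CPM, and Klf10 fell by 0.71 ± 0.16 (adjusted p = 0.0072 in edgeR). Egr3 fell by 0.72 ± 0.18 (adjusted p = 0.0146), Fosl2 by 0.60 ± 0.16 (0.0189) and Dusp4 by 0.53 ± 0.13 (0.0118) in the same test. Pim1 fell by 0.62 ± 0.17 (adjusted p = 0.0276) and Klf4 by 0.55 ± 0.16 (adjusted p = 0.0369), both at levels under 7 CPM in every KI library. Leaving out a library ended the call of Egr3 without KI replicate 6 at 3 months (adjusted p = 0.0509), of Klf4 without any of 5 KI libraries (adjusted p up to 0.106) and of Pim1 without any of 4 (adjusted p up to 0.0825).

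Egr2 and Egr1 also did not overlap between ages in KI but were not called, at -1.18 ± 0.41 and -0.71 ± 0.24 on the log2 scale (adjusted p = 0.085 and 0.077 in edgeR), and so was Sik1 at -0.58 ± 0.20. Other members of large spread were not called either: Fos had -0.54 ± 0.38, Arc -0.13 ± 0.44, Nr4a1 -0.21 ± 0.33, Junb -0.26 ± 0.38 and Dusp1 0.02 ± 0.30. Thalamus markers were lower at 10 months in KI at 10 of 10 members, 8 of them called, with summed levels of 101 to 123 CPM at 10 months, against 147 to 292 CPM at 3 months. With the thalamus score as a covariate 5 members were called, Atf3 at a higher level and Nr4a2, Nr4a3, Klf10 and Homer1 at a lower one, with log2 fold changes of 1.55, -0.64, -1.09, -1.21 and -0.90 in that order. The calls of Fosl2, Egr3, Klf4, Dusp4 and Pim1 were lost there, with adjusted p between 0.179 and 0.655 and log2 fold changes of -0.43, -0.74, -0.76, -0.68 and -0.66 in that order. The median over the members was -0.41 in that fit. Over all genes the calls went from 1582 to 258 there, and those at a lower level from 472 to 21. The thalamus score ran between 0.47 and 1.47 in KI libraries at 3 months and between -0.66 and -0.37 at 10 months. These ranges do not overlap, so age and thalamus tissue cannot be cleanly told apart in that fit. Glucocorticoid response genes were higher at 10 months in KI at 11 of 13 members, 4 of them called, with Hif3a at 1.55 ± 0.27, and choroid plexus markers lay below 0 at 11 of 11 (median -1.04). Erythrocyte markers lay above 0 at 5 of 5 (median 1.00, 2 called), meningeal fibroblast markers below 0 at 9 of 9 (median -0.53), and of 10 endothelium markers 3 were called lower and 1 higher. Excitatory neuron markers had a median of 0.02, with 0 called. With the choroid plexus score as a covariate 9 members and 1228 of all genes were called, and the part of the other lists was not tested.

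**Figure D5:**
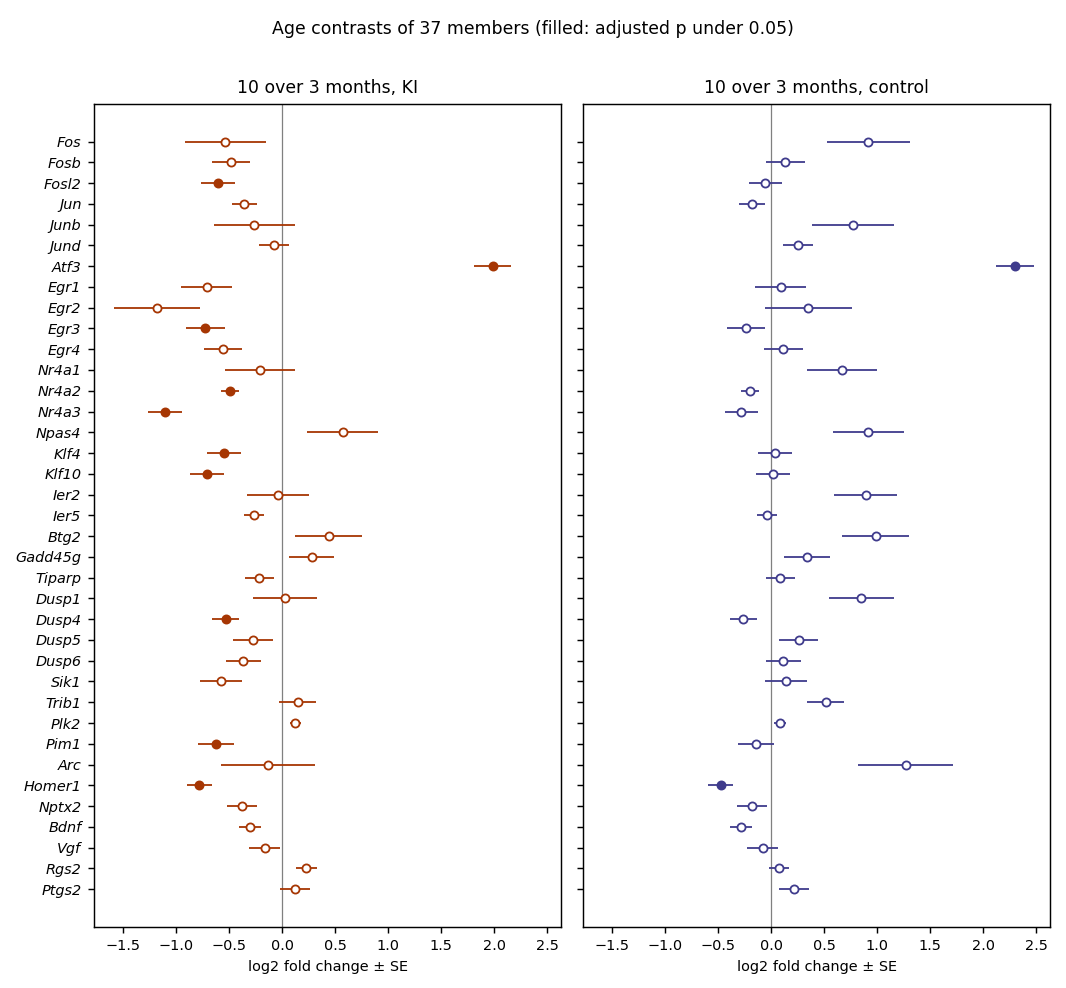
Log2 fold change of 10 months over 3 months with its SE for each of the 37 members in KI (left) and control (right). Filled points have an adjusted p under 0.05: 10 in KI, with Atf3 the only one above 0, and 2 in control, Atf3 above 0 and Homer1 below it.

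In control cortex 2 of 37 members changed with age, against 4.07% of all genes. Atf3 rose and Homer1 fell, where 3.72% of all genes rose and 0.357% fell. Atf3 was 4.92-fold higher, with 2.11, 2.40, 2.25, 2.39 and 2.57 CPM at 10 months, against 0.503, 0.483, 0.225, 0.623 and 0.526 CPM at 3 months. The ages did not overlap, and the log2 fold change was 2.299 ± 0.18 (adjusted p = 2.4e-08 in edgeR). Homer1 fell by 0.48 ± 0.12 (adjusted p = 0.0211 in edgeR), at 168, 152, 149.7, 134 and 142 CPM at 10 months, against 252.4, 145, 213.5, 229 and 198 CPM at 3 months. Control replicate 7 at 3 months lay inside the 10-month range, and the call was lost without control replicate 9 or 10 at 10 months or control replicate 6, 8 or 9 at 3 months (adjusted p up to 0.0822).

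With age in control 25 of 37 members lay above 0, against 49.0% of all genes, with a median of 0.11. Without control replicate 10 at 10 months 18 lay above 0 and the median was -0.02, so that the direction rested on that library. At an unadjusted p under 0.05 there were 8 members higher, where 9.45% of all genes were higher, and 3 lower, where 4.11% were lower. Btg2, an antiproliferative regulator, had 16.0, 16.2, 22.6, 16.2 and 48.7 CPM at 10 months, against 11.4, 12.5, 14.6, 11.6 and 10.4 CPM at 3 months, without overlap, as for 4.56% of genes. No member was separated downward, as were 1.13% of genes. Its log2 fold change was 0.99 ± 0.32 (adjusted p = 0.101 in edgeR), and without control replicate 10 at 10 months it was 0.55. Arc had 1.27 ± 0.45, Fos 0.92 ± 0.39, Npas4 0.92 ± 0.34, Ier2 0.89 ± 0.30 and Trib1 0.51 ± 0.17 on the log2 scale, none of them called. Choroid plexus markers lay above 0 at 11 of 11 (median 0.77) and thalamus markers at 0 of 10 (median -0.49, 1 called). Microglia markers lay above 0 at 9 of 9 (7 called). The part of these markers was not tested beyond the covariate fits, which also called 2 members. Over all genes the thalamus score gave 507 calls and the choroid plexus score 789, against 799 in the main run.

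The genotype by age interaction, which tests whether the age change differed between KI and control, called 0 members and 0% of all genes in edgeR, and DESeq2 and limma-voom called 3 genes each with 0 members among them. It was above 0 for 2 of 37 members, against 48.9% of all genes, with a median of -0.48, and 13 members had an unadjusted p under 0.05, all negative, where 2.35% of all genes were negative and 2.15% positive at that p. Nr4a3 had -0.82 ± 0.22 (adjusted p = 0.752), Klf10 -0.72 ± 0.23, Egr2 -1.53 ± 0.58, Fos -1.45 ± 0.55 (-0.95 without control replicate 10 at 10 months), Egr4 -0.67 ± 0.25 and Klf4 -0.59 ± 0.23. A call in KI and none in control is therefore not shown to differ between genotypes for any member. Choroid plexus markers, at 0 of 11 above 0 (median -1.74), and thalamus markers, at 0 of 10 (median -0.51), moved the same way, and glucocorticoid response genes moved the other way (10 of 13 above 0, median 0.55). Their part in the interaction was not tested beyond the covariate fits, in which the members' median was -0.50 with the thalamus score and -0.46 with the choroid plexus score.

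Other genes of the activity program gave a mixed picture. Of 23 tested genes on a list of other rapidly induced genes, 0 were called between genotypes at either age, with medians of 0.12 at 3 months and -0.05 at 10 months. With age in KI 3 rose and 3 fell, where 5.66% of all genes rose and 2.41% fell. The mRNA decay factor gene Zfp36 rose by 0.86 ± 0.13, the small Maf gene Maff by 1.06 ± 0.25 and Klf6 by 0.22 ± 0.06 on the log2 scale, while Nfil3 fell by 0.51 ± 0.10, Crem, which encodes a CRE-binding factor, by 0.38 ± 0.08 and Arl5b by 0.50 ± 0.13. In control 2 rose with age, where 3.72% of all genes rose: Zfp36 by 0.80 ± 0.13 and Cyr61 by 1.31 ± 0.34. Of 21 tested genes of the later wave, 2 fell with age in KI, beside the same 2.41% of all genes. The prohormone convertase gene Pcsk1 fell by 0.67 ± 0.11 and Zdbf2 by 0.80 ± 0.15 there, and 0 were called with age in control. Inhba, an activin subunit gene that neuronal activity induces, was called in the averaged genotype comparison, where 0.0306% of all genes were called lower. Its log2 fold change there was -0.66 ± 0.10 (adjusted p = 0.00357 in edgeR). Of 30 tested genes of the upstream pathway (receptors, channels, kinases and the resident factors), 0 were called in any comparison, and their median was 0.00 at 3 months and -0.03 at 10 months between genotypes. Of 9 heat shock genes, 0 were called in any comparison.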

How the data were processed

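The deposited data were raw counts per gene for 20 bulk RNA-seq libraries of total RNA from cortex, with gene symbols, coordinates and gene lengths, as deposited by the authors. Per the submitters' processing notes the build was mm10. Read alignment, counting, its strand setting and the annotation are not given in the sources used here. Table columns were matched to libraries by the library names in the labels, and 0 columns of per-sample values were left unused.

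Genes passing filterByExpr (19623 of 43346) were scaled by TMM (factors 0.972 to 1.03) and tested in edgeR 4.0.16 (R 4.3.3) with a robust quasi-likelihood F test; the model had 1 mean per group and left 16 residual degrees of freedom. P-values were adjusted by Benjamini-Hochberg over all genes of a contrast and called at 0.05. The fit was tested on simulated data with known changes. CPM used the TMM-scaled library sizes, and log2 CPM was taken after 1 was added to every count. Replicates differed by far more than sampling noise, at a chi-square of 10.9 to 125 per degree of freedom, and total counts were 42896149 to 57447015. Abca7 was compared by 2-sided exact permutation tests over 252 assignments, whose smallest p is 0.00794.

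The members and all gene lists were chosen with earlier results of these data known, so their direction is no independent support. Members are described by counts and medians, with no test over the list. Full statistics were given to called members and to the 6 of smallest p per comparison, and the genes most alike were the 10 non-members of at least 1 CPM of highest correlation with the members' mean. Promoter windows came from RefSeq. Other settings were DESeq2 1.42.0, limma-voom (limma 3.58.1, with sample quality weights), RLE scaling, the low-count filter dropped or set at a mean of 1 CPM, only the compared libraries, a replicate block, 1 surrogate variable (sva 3.50.0), thalamus or choroid plexus score as covariate, an adjusted p under 0.10, and each library left out in turn. Leaving out both KI libraries that stand apart was added after seeing the data.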

Additional observations from a re-analysis of the deposited data

Results flagged for a closer look

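Of 148 sets of 5 libraries (37 members in 4 groups), 11 held a library that stood apart from the other 4 by the gap criterion of Dixon (gap over range above 0.71), where chance gives about 5%. Those flagged in KI replicate 5 at 10 months, the library with high Xist, were 4: Egr1 at 60.3 CPM, Gadd45g at 2.85 CPM and Dusp5 at 5.06 CPM were low, and Jun at 30.9 CPM was high. Another 3 lay in control replicate 10 at 10 months, where Fos at 41.6 CPM, Btg2 at 48.7 CPM and Dusp1 at 49.6 CPM were high, next to 17.1, 22.6 and 24.8 CPM in the library below. The other 4 lay in separate libraries: Plk2 was high at 282 CPM in KI replicate 4 at 10 months, Egr2 low at 10.1 CPM in KI replicate 7 at 3 months, Nr4a3 low at 21.2 CPM in control replicate 9 at 10 months and Npas4 high at 20.8 CPM in control replicate 8 at 3 months.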

How the results depend on the processing

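No called member changed direction under any alternative run, but the members' median with age in control, 0.11, was -0.02 without control replicate 10 at 10 months and ran up to 0.17 with other libraries left out. In every alternative run, 0 members were called between genotypes, or in the interaction. The smallest adjusted p at 3 months was 0.226 in DESeq2, 0.149 in limma-voom and 0.128 with only the compared libraries. The median at 3 months ran between 0.30 and 0.40 when a library of that age was left out and was 0.35 without both KI libraries that stand apart. At 10 months it ran between -0.25 and -0.05 with a library left out and was -0.06 without those libraries, with 15 members above 0, and the smallest adjusted p over the alternatives was 0.0743, with 1 surrogate variable.

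For age in KI, where 10 members were called, 16 were called in DESeq2, 20 in limma-voom, 6 with only the compared libraries, 19 with 1 surrogate variable, 5 with the thalamus score, 17 at a threshold of 0.10 and 11 without both KI libraries. Leaving out a library gave 7 to 13. For age in control, leaving out a library gave 1 to 3 members. Calls over all genes with age in KI moved as well, from 1582 in the main run to 2057 in DESeq2 and 3027 in limma-voom. They were 958 with only the compared libraries, 4091 with 1 surrogate variable and 258 with the thalamus score. A threshold of 0.10 gave 2289, leaving out both KI libraries 1571, and leaving out a library 1117 to 1670. The cause was not tested.

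Equal replicate numbers gave no pairing, since only 4 of 18 such pairs had a correlation above 0.1 and 1 library in 20 was closest to its namesake. With a replicate block 0 members were called in each genotype comparison, and the median at 10 months between genotypes was -0.02. KI libraries carried numbers 3 to 7 and control libraries 6 to 10, so only numbers 6 and 7 occurred in both genotypes. That fit therefore compares genotypes through those numbers only, which makes it a weak check. With age it called 9 members in KI, among 1192 of all genes, and 1 in control, among 653 of all genes. Single genes were followed over the alternatives only if called in the main run or among the 6 of smallest p in a comparison. Of these results, 31 lost a call, 4 gained one and 1233 kept their side of the threshold, many of them never called. For age in KI only members already called were followed, so the members gained there in other runs are not in these counts. Depth limits Atf3 most, with as few as 10 counts in a library.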
